A study of Homo sapiens and Mus musculus with 26 samples.

Results

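METTL1 and WDR4 are the subunits of the methyltransferase that adds m7G (N7-methylguanosine) to part of the cell's tRNAs, and their RNA is described here in 12 MHCC97H and 4 SNU449 libraries. Both were chosen by name, as the enzyme that the study perturbed and its partner, and they are 2 of the 8074 genes listed in 12 RNA libraries of MHCC97H cells and 2 of the 19598 features listed in 4 small RNA libraries of SNU449 cells. METTL1 is the catalytic subunit, which binds the methyl donor S-adenosylmethionine. WDR4 is a WD-repeat protein without catalytic activity that docks the tRNA and holds METTL1 in place, and the complex modifies the variable loop of its tRNA substrates, which protects them from decay. Depletion of either protein is known to lower m7G on tRNA.

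Both cell lines, MHCC97H and SNU449, were derived from human hepatocellular carcinoma. The MHCC97H cells either carried a short hairpin RNA against METTL1 (labelled shMETTL1-2 and called the knockdown here) or were wild-type cells labelled NC (called the control). For each, mRNA bound to polyribosomes (the polysome libraries) and the RNA before that selection (the input libraries) were sequenced in 3 repeats, which makes 4 groups of 3. The purpose stated by the submitters was to find genes translated differently after the knockdown. In SNU449 cells, METTL1 was overexpressed in cells labelled OE-WT and not in wild-type cells labelled NC. Their small RNA was treated with AlkB, which removes methyl groups that block reverse transcription, and was sequenced either without further treatment (input) or after NaBH4, which leads to cleavage of tRNA at m7G. There is 1 library of each kind. The labels name a single hairpin, and its target site, the promoter of the overexpression construct and whether the cells are clones or pools were not stated. The labels do not say that repeats are separate cultures; p-values therefore reflect only the variation among these libraries, and that variation may be technical.

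METTL1 lies on chromosome 12 at 57768471 to 57772105 (GRCh38.p14), a span of 3635 bp that no other gene of the reference table overlaps. WDR4 lies on chromosome 21 at 42843094 to 42892998, a span of 49905 bp. A noncoding gene, LOC105372817, overlaps the WDR4 span, and because the counting is not stated to use strand, reads of the pair cannot be told apart. Values cover the whole gene, and exons, introns and UTRs are not separated in the deposited tables.

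The MHCC97H values are FPKM, fragments scaled to transcript length and to library size, so levels of different genes can be compared. FPKM summed to between 482334 and 821900 per library, and no gene was listed below 1 in any library, so read depth and counting error are unknown. Repeat 1 stood apart from repeats 2 and 3 in each group: across genes, the SD of the log2 difference between repeats 1 and 2 was 0.464 to 1.20, against 0.106 to 0.143 between repeats 2 and 3. Of 14 liver and epithelial markers, 4 were listed, among them KRT8 and KRT18, keratins of epithelial cells, and HNF4A, a transcription factor of hepatocytes. Of 11 markers of leukocytes, endothelial cells and fibroblasts, CD68 was the single member listed, with log2 differences between knockdown and control of 0.09 in polysome and -0.19 in input RNA. A marker without a row was not analysed here.

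METTL1, the target of the hairpin, had less RNA in all knockdown libraries than in any control library, in both input and polysome RNA. In input RNA its FPKM was 47.94, 39.33 and 36.03 in control repeats 1, 2 and 3, and 11.89, 18.34 and 15.34 in knockdown repeats 1, 2 and 3. The lowest control library therefore stood well above the highest knockdown library. In polysome RNA the FPKM of METTL1 was 45.27, 43.82 and 38.18 in the control and 8.29, 22.93 and 25.55 in the knockdown. The knockdown repeats here spread widely, with repeat 1 far below the other two, but none reached the control range. Group means were 41.1 ± 6.15 FPKM in control and 15.2 ± 3.23 in knockdown input, and 42.4 ± 3.75 in control and 18.9 ± 9.30 in knockdown polysome RNA (SD, n = 3).

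METTL1 was among the better expressed genes of control cells and ranked lower in every knockdown library than in any control library. In both kinds of RNA it lay below the library median in knockdown repeat 1 and above it in knockdown repeats 2 and 3. The percentage of genes listed below METTL1 was between 72.8 and 79.1 in the 6 control libraries. In the knockdown it was 38.3, 66.7 and 62.8 in input repeats 1, 2 and 3, and 31.0, 62.4 and 64.7 in polysome repeats 1, 2 and 3. A change of rank does not depend on how a library was scaled.

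**Figure D1:**
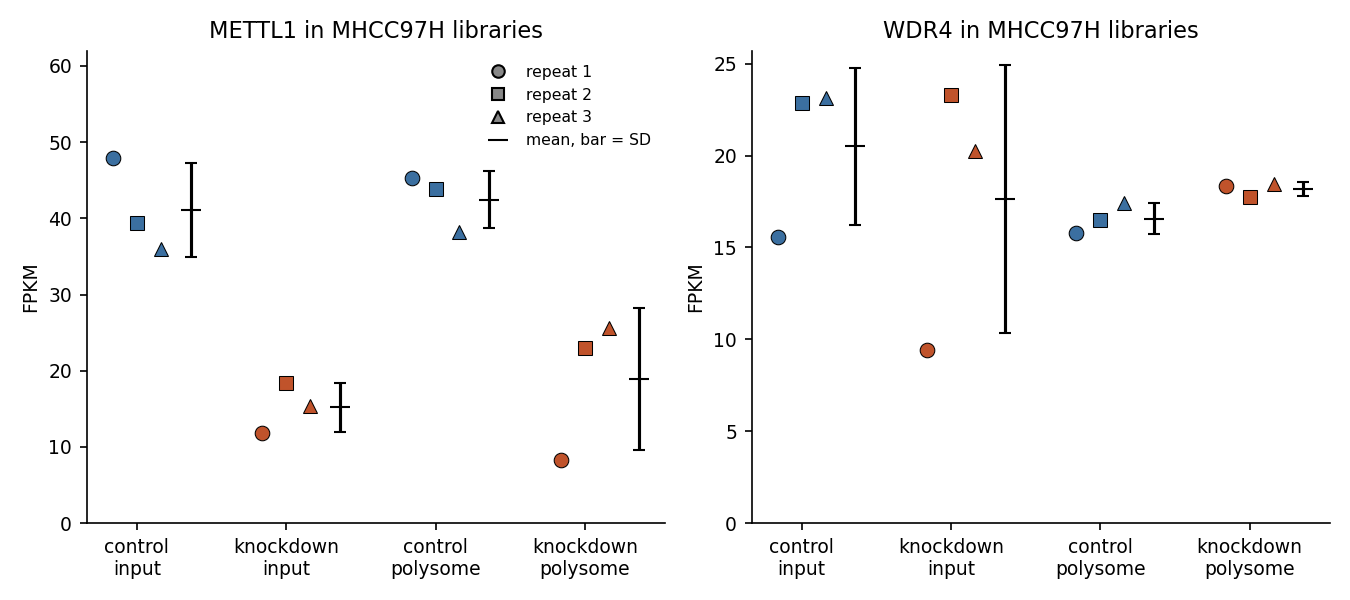
FPKM of METTL1 and WDR4 (vertical axis) in the 12 MHCC97H libraries, by group (horizontal axis), with 1 point per library, its shape giving the repeat, and beside them the group mean with its SD. METTL1 lies between 36.03 and 47.94 in the control libraries and between 8.29 and 25.55 in the knockdown libraries, while the WDR4 groups lie at similar levels.

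The METTL1 RNA that remained differed between repeats. Relative to the control library of the same number, 24.8%, 46.6% and 42.6% of METTL1 was left in input repeats 1, 2 and 3, and 18.3%, 52.3% and 66.9% in polysome repeats 1, 2 and 3. The knockdown was thus deepest in repeat 1 in both kinds of RNA. From the group means, 37.0% was left in input and 44.6% in polysome RNA, levels 2.71-fold and 2.24-fold lower. With repeat 1 left out of both groups, the shares were 44.7% and 59.1%. The difference between the repeats in the remaining METTL1 moved with the separation of repeat 1 across all genes, and the part of that separation in it was not tested.

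**Figure D2:**
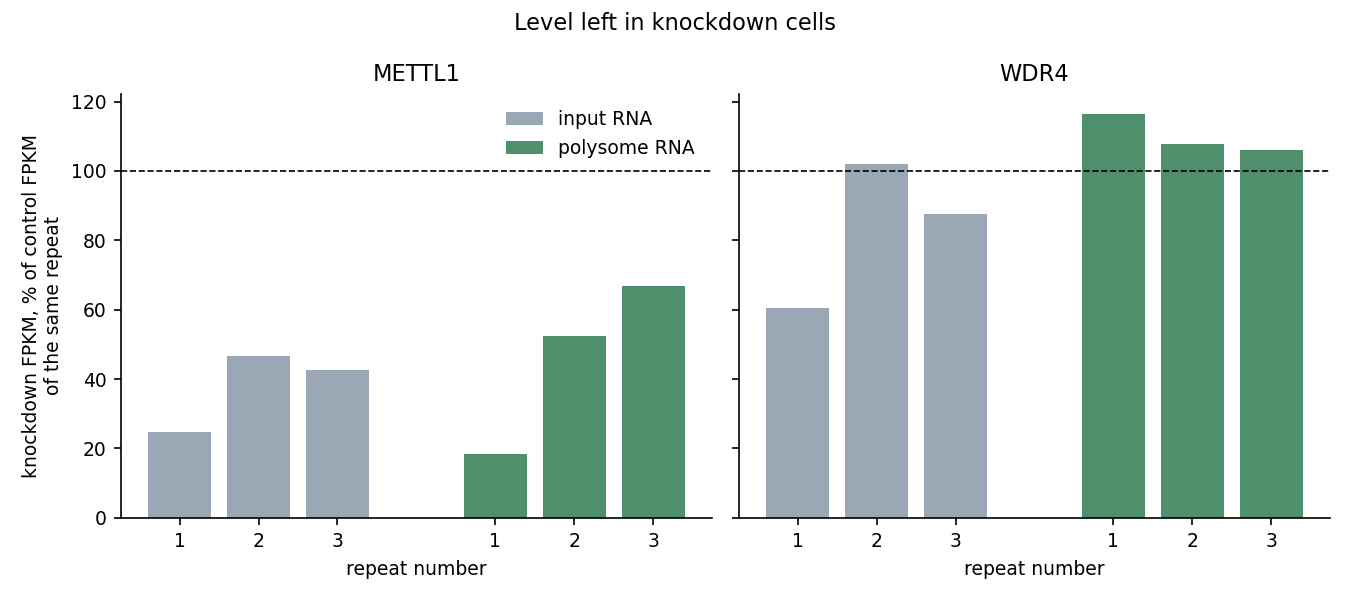
Percent of the same-numbered control FPKM left in each knockdown library (vertical axis) for METTL1 and WDR4 in input and polysome RNA, with 1 bar per repeat and a dashed line at 100%. METTL1 bars end between 18.3% and 66.9%, all below 100%, and WDR4 bars end between 60.4% and 116%.

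On the log2(FPKM + 1) scale, which understates the change of low genes, METTL1 differed by -1.39 in input RNA (SE 0.36, 95% interval -2.18 to -0.60) and by -1.26 in polysome RNA (SE 0.36, -2.05 to -0.47). Neither passed a threshold of 0.05 after Benjamini-Hochberg adjustment over the 8074 genes in limma, with adjusted p of 1.00 and 0.602. The exact two-sided permutation test of METTL1 alone gave p = 0.1 in both kinds of RNA, the smallest value that 3 against 3 libraries allow. The limma test called 0% of genes in input RNA, 0% in polysome RNA and 0% for the difference between them, and 134, 609 and 336 genes had an unadjusted p under 0.05. No other tool was run on this table. With the repeat number as a block, limma called 1 gene in each kind of RNA, AZGP1, and not METTL1 (adjusted p = 0.260 in polysome and 1.00 in input RNA). Fitted alone, the 6 polysome libraries gave 1117 called genes, 13.8% of all, with 88 higher and 1029 lower in the knockdown, and METTL1 was not among them (limma adjusted p = 0.0765). Using repeats 2 and 3 alone, a setting chosen after the data were seen, METTL1 passed in both, at -1.12 in input RNA (limma adjusted p = 4.16e-07) and -0.73 in polysome RNA (limma adjusted p = 6.9e-06). That setting called 50.7% of all genes in input RNA and 64.5% in polysome RNA. Repeats 2 and 3 lay close together, with an SD of their log2 difference across genes of 0.106 to 0.143. They are not stated to be separate cultures, so these p-values may reflect technical spread alone.

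Among all genes, METTL1 had the lowest mean difference in input RNA, rank 1 of 8074. In polysome RNA it ranked 86. Every knockdown library lay below every control library for 2.42% of genes in input RNA (195 genes), for 26.5% in polysome RNA (2141 genes), and for 0.310% in both (25 genes), METTL1 among them. Taken by repeat, no gene had a lower input difference than METTL1 in repeat 1, and 0.173% and 0.0867% of genes did in repeats 2 and 3. In polysome RNA the percentages were 0.0372, 4.19 and 18.4 in repeats 1, 2 and 3, so METTL1 stood out less in polysome repeat 3 than in any other pair of libraries.

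**Figure D3:**
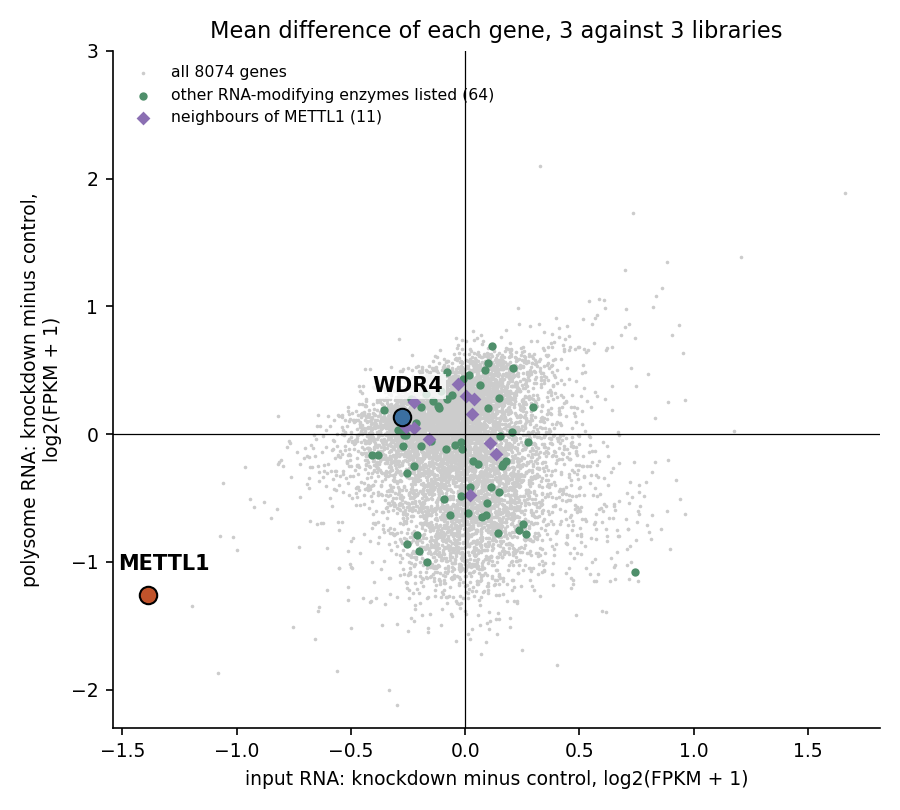
Mean log2(FPKM + 1) difference, knockdown minus control, in input RNA (horizontal axis) against polysome RNA (vertical axis), with 1 point per gene of the 8074 listed, other RNA-modifying enzymes in green and the 11 listed neighbours of METTL1 in purple. METTL1 lies at the far left, at -1.39 and -1.26, and WDR4 lies near the centre, at -0.28 and 0.13.

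Ranked by the smaller of their 2 differences, polysome and input, METTL1 was first of the 25 genes that were lower in both. The next was B4GALT4, a galactosyltransferase, with log2 differences of -1.87 in polysome and -1.08 in input RNA (-0.52 in input without control input replicate 1). It was followed by SAP30BP, with -0.91 and -0.998 (-0.55 in polysome RNA without knockdown polysome replicate 1), by EPHA2, a receptor tyrosine kinase, with -0.80 and -1.02, and by WNT7B, a secreted Wnt ligand, with -0.80 and -1.07. None of these passed the limma threshold in the fit of 12 libraries, and B4GALT4 passed in polysome RNA when the 6 polysome libraries were fitted alone (limma adjusted p = 0.0165). That fit called 13.8% of all genes. SAP30BP FPKM in input RNA was 32.19, 25.29 and 25.02 in the control and 14.02, 12.38 and 13.18 in the knockdown, groups that lie far apart.

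WDR4, the partner subunit, was not lower in this way. In input RNA its FPKM was 15.59, 22.84 and 23.12 in control repeats 1, 2 and 3, and 9.41, 23.28 and 20.23 in knockdown repeats 1, 2 and 3. Repeat 1 was low in both groups, and the groups overlapped. Within repeat 1, WDR4 was also lower in the knockdown, by a log2 difference of -0.67, and 0.656% of genes had a lower one. In repeats 2 and 3, 58.9% and 32.2% of genes did. In polysome RNA the FPKM of WDR4 was 15.77, 16.48 and 17.44 in the control and 18.37, 17.76 and 18.47 in the knockdown. All knockdown libraries lay above all control libraries, by a small margin, as they did for 13.7% of all genes in polysome RNA. Group means were 20.5 ± 4.27 and 17.6 ± 7.29 FPKM in control and knockdown input, and 16.6 ± 0.838 and 18.2 ± 0.384 FPKM in control and knockdown polysome RNA (SD, n = 3).

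The log2 difference of WDR4 was -0.28 in input RNA (SE 0.30, 95% interval -0.95 to 0.39, limma adjusted p = 1.00) and 0.13 in polysome RNA (SE 0.30, -0.54 to 0.80, limma adjusted p = 0.918). The exact permutation test gave p = 0.7 and p = 0.1. Relative to the same-numbered control, the WDR4 level was 60.4%, 102% and 87.5% in input repeats 1, 2 and 3, and 116%, 108% and 106% in polysome repeats 1, 2 and 3. The intervals hold levels below and above the control, so equal WDR4 levels are not shown. Without knockdown input replicate 1, the input difference of WDR4 was 0.10, of the opposite sign.

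Since the proteins work as a complex, their RNA was also compared within each library, where the scaling of the library cancels. METTL1 exceeded WDR4 in all 6 control libraries. The ratio of METTL1 to WDR4 FPKM in input RNA was 3.08, 1.72 and 1.56 in the control and 1.26, 0.788 and 0.758 in the knockdown. In polysome RNA the ratio was 2.87, 2.66 and 2.19 in the control and 0.451, 1.29 and 1.38 in the knockdown. METTL1 thus lay below WDR4 in 3 of 6 knockdown libraries, input repeats 2 and 3 and polysome repeat 1, and the groups did not overlap in either kind of RNA. The mean ratio went from 2.12 ± 0.832 to 0.937 ± 0.284 in input and from 2.57 ± 0.349 to 1.04 ± 0.514 in polysome RNA (SD, n = 3). The log2 ratio differed by -1.15 and by -1.46, each with p = 0.1 in an exact two-sided permutation test, the smallest that the design allows.

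**Figure D4:**
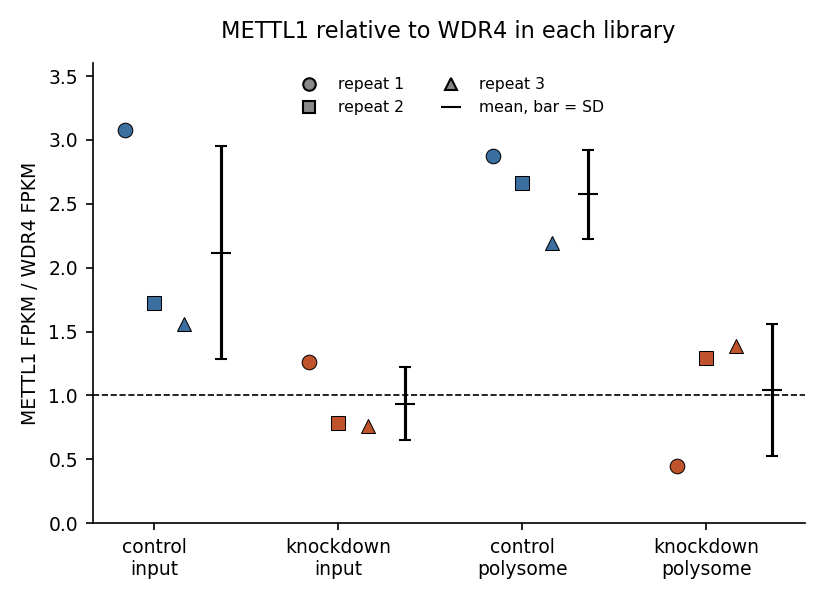
Ratio of METTL1 to WDR4 FPKM within each MHCC97H library (vertical axis, linear scale) by group (horizontal axis), with 1 point per repeat. All control libraries lie between 1.56 and 3.08 and all knockdown libraries between 0.451 and 1.38.

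METTL1 showed no common direction between polysome and input RNA. The log2 difference of polysome minus input RNA was -0.08, 0.15 and 0.08 in control repeats 1, 2 and 3, and -0.47, 0.31 and 0.70 in knockdown repeats 1, 2 and 3. The knockdown values point both ways. Their group means were 0.05 (95% interval -0.74 to 0.84) and 0.18 (-0.61 to 0.97), and both means turned negative when libraries were quantile normalised or set to an equal median. The change of this difference with the knockdown, the interaction in limma that stands for translation efficiency, was 0.13 for METTL1 (-0.99 to 1.25, adjusted p = 0.982). It was -0.0049 when repeats 2 and 3 were averaged into a single value that counted as much as repeat 1.

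For WDR4, polysome minus input RNA was 0.02, -0.45 and -0.39 in control repeats 1, 2 and 3, and 0.90, -0.37 and -0.12 in the knockdown. The value of 0.90 in knockdown repeat 1 exceeded that of 99.9% of genes in the same pair of libraries, where the median gene stood at 0.01. It goes with the low WDR4 input value of 9.41 in that repeat. The means were -0.27 in the control (-0.94 to 0.40) and 0.13 in the knockdown (-0.54 to 0.80), and the knockdown mean took the opposite sign under both rescalings. The interaction for WDR4 was 0.41 (-0.54 to 1.35, limma adjusted p = 0.977). Across all genes, setting libraries to an equal median moved the knockdown against control difference in polysome RNA by 0.17, and METTL1 stayed lower, and WDR4 higher, under both rescalings.

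Among the other enzymes that write m7G, 3 of 4 were listed and none passed the limma test in either kind of RNA. RNMT, the cap methyltransferase that forms m7G at the start of mRNA, had an FPKM of 8.03, 7.60 and 7.44 in control and 5.34, 4.81 and 3.94 in knockdown polysome libraries, groups that did not overlap (log2 difference -0.62, limma adjusted p = 0.753, and 0.0301 with only the 6 polysome libraries fitted). In polysome RNA, 26.5% of all genes were lower without overlap, and the fit of 6 libraries called 13.8% of all genes. The input difference of RNMT was 0.01, with overlapping groups. BUD23, which methylates 18S rRNA, averaged 114 ± 14.1 and 155 ± 33.0 FPKM in control and knockdown polysome RNA (SD, n = 3), a log2 difference of 0.43 with overlapping groups. TRMT112, the cofactor that BUD23 shares with several other methyltransferases, differed by 0.69, also with overlap. It is counted again among the tRNA methyltransferases below. RAMAC, the activator of RNMT, was not analysed here.

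The wider set of tRNA methyltransferases had 24 of 35 members listed, and 0 passed the limma test in either direction in either kind of RNA. With the 6 polysome libraries fitted alone, 5 of the 24 passed, all lower: TRMT10C (limma adjusted p = 0.0128), TRMT6 (0.0124), TRMT61B, THUMPD3 and TARBP1. That fit called 13.8% of all genes, 1029 lower and 88 higher. The median log2 difference of the 24 was -0.12 in polysome and 0.08 in input RNA, against -0.03 and -0.03 over all genes. In polysome RNA, 7 of the 24 were lower and 3 higher without overlap, beside 26.5% and 13.7% of all genes. TRMT10C, a subunit of mitochondrial RNase P that also methylates position 9 of mitochondrial tRNA, differed in opposite directions. Its polysome FPKM was 17.01, 20.27 and 22.44 in the control and 7.15, 9.51 and 10.04 in the knockdown, with a log2 difference of -1.08 (limma adjusted p = 0.549). Its input FPKM was 16.05, 10.15 and 11.68 in the control and 17.91, 24.05 and 22.9 in the knockdown, with a difference of 0.74 (limma adjusted p = 1.00). The input libraries did not overlap either, a pattern that 1.91% of genes showed in that direction. TRMT6, which works with TRMT61A to place m1A on tRNA, differed by -0.78 in polysome RNA, and NSUN6, a cytosine methyltransferase, by -0.45, or -0.29 without knockdown polysome replicate 1.

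Of 47 other tRNA modification enzymes, 38 were listed and 0 passed. With only the 6 polysome libraries fitted, 2 of the 38 passed as lower, PUS7 among them, and 1, CTU2, as higher. That fit called 13.8% of all genes. The median of the 38 was -0.09 in both polysome and input RNA. Without overlap in polysome RNA, 10 were lower and 7 higher, again beside 26.5% and 13.7% of all genes. THUMPD1, an adapter for tRNA cytidine acetylation, differed by -0.86 in polysome RNA, and by -0.41 without knockdown polysome replicate 1. The pseudouridine synthases PUS3 and PUS1 differed by -0.64 and 0.26, and without that library PUS3 differed by -0.42. In the METTL family of methyltransferase-like proteins, to which METTL1 belongs, 16 of 29 members were listed and 0 passed, with medians of -0.10 in polysome and -0.06 in input RNA. METTL15 differed by -0.49, METTL18 by -0.46 and METTL26 by 0.37 in polysome RNA, and METTL15 passed with only the 6 polysome libraries fitted (limma adjusted p = 0.0477). Without knockdown polysome replicate 1 METTL18 differed by -0.15, and without control polysome replicate 1 METTL26 differed by 0.23. In these 4 lists, 0 members had a lower mean difference than METTL1 in either kind of RNA. Among 13 reference genes of general use, 1 did in polysome RNA, the transferrin receptor TFRC, at -1.32 (limma adjusted p = 0.669, and 0.0076 with the 6 polysome libraries alone).

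By the Pearson correlation of log2(FPKM + 1) over the 12 libraries, the gene most like METTL1 was SAP30BP (r = 0.92), followed by POLR3B, a subunit of RNA polymerase III (0.88), EPHA2 (0.84), LUZP1 (0.84) and PBDC1 (0.84). The genes most like WDR4 were GMPPB, a subunit of the enzyme that makes GDP-mannose (0.97), DBNL (0.94), DHRS4 (0.92), ACAD10 (0.92) and SGSM3 (0.91). GMPPB FPKM in input RNA was 13.21, 25.33 and 25.61 in the control and 8.67, 23.33 and 21.84 in the knockdown, low in repeat 1 of both groups like WDR4. The 12 points share 4 groups and the separation of repeat 1, and these correlations are given as a description.

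The chromosomal neighbours of METTL1 overlapped between groups in input RNA. Of 20 protein-coding genes within 250 kb of METTL1, 11 were listed, with input log2 differences between -0.26 and 0.14. In polysome RNA they ranged from -0.48 to 0.39. EEF1AKMT3, a lysine methyltransferase of elongation factor 1 alpha that lies 509 bp from METTL1, was at 7.41, 7.43 and 7.53 in control and 5.87, 5.09 and 4.35 FPKM in knockdown polysome libraries (log2 difference -0.48, limma adjusted p = 0.799). CDK4, the cell-cycle kinase, was at 259.53, 258.27 and 251.49 in control and 369.49, 318.66 and 321.42 FPKM in knockdown polysome libraries (0.39, limma adjusted p = 0.662). These were the neighbours whose polysome groups did not overlap, 1 lower and 1 higher of 11, beside 26.5% and 13.7% of all genes. Near WDR4, 4 of 6 genes were listed, with polysome differences of -0.31 to 0.26 and input differences of -0.43 to 0.96, and the groups of each overlapped.

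In SNU449 cells the deposited values are read counts divided by a factor per library, not per kilobase, so levels of METTL1 and WDR4 are not compared with each other. The reads are fragments of long RNA in small RNA libraries, with 2222876 to 3368948 mature tRNA reads per library. METTL1 had 6 reads in NC input (95% exact Poisson interval 2.20 to 13.1) and 142 in OE-WT input (120 to 167). After NaBH4 it had 0 reads in NC, which allows up to 3 reads, and 81 in OE-WT (64.3 to 101). METTL1 was thus near the limit of detection in both NC libraries and well above it in both OE-WT libraries. Intervals and floors cover counting error only.

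After scaling by the deposited factors, METTL1 was 29.9-fold higher in OE-WT than in NC input (95% exact conditional binomial interval 13.4 to 82.9). After NaBH4 the 0 reads in NC allow no direct ratio. Set against a floor of 3 reads in NC, its 81 reads in OE-WT were 36.7-fold higher. With the lower limit of those 81 reads the value was 29.2-fold. With both kinds of library summed, 223 reads in OE-WT stood against 6 in NC. There is 1 library per group, so the differences are between these libraries and have no replicate check. Whether the reads come from the construct or from the cell's own gene was not tested.

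WDR4 had 23 reads in NC input, 22 in OE-WT input, 11 in NC after NaBH4 and 7 in OE-WT after NaBH4. The scaled ratio of OE-WT to NC was 1.21 in input (0.642 to 2.27) and 0.866 after NaBH4 (0.285 to 2.45), and 1.08 over both (0.635 to 1.83). A change of WDR4 within these intervals was not detectable at this depth.

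**Figure D5:**
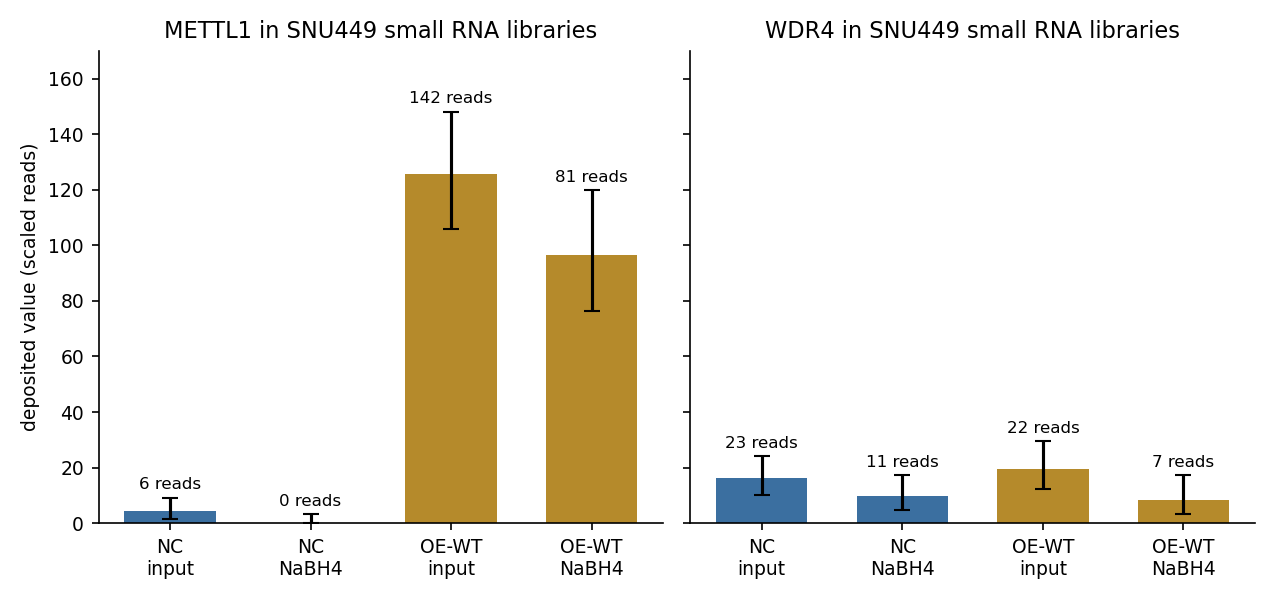
Deposited values (scaled reads, vertical axis) of METTL1 and WDR4 in the 4 SNU449 libraries (horizontal axis). Bars carry 95% exact Poisson intervals on the same scale, and the recovered read count is printed above each. METTL1 has 6 and 0 reads in the NC libraries and 142 and 81 in the OE-WT libraries, while WDR4 has between 7 and 23 in all 4.

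The METTL1 ratio was high among all features. A ratio of at least 2 in favour of OE-WT was found for 15.0% of 14115 input features with at least 10 reads over both libraries, and for 15.6% of 12728 such features after NaBH4. METTL1 ranked 12 in input. In this order a feature with 0 reads in NC was set to 3 reads while 1 or 2 reads were taken as they are, so the places of such features are uncertain, and no rank is given after NaBH4. Of the features above it in input, most had 0 or 1 read in NC, such as SLC37A4 with 109 reads against 0 and LINC01811 with 76 against 1, and JPX had 464 against 8 (these were picked after their values were seen). METTL1 moved from above 24.9% to above 91.5% of protein-coding features in input, and WDR4 from 57.4% to 61.6%.

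A ratio of at least 2 in either direction was frequent, at 30.9% of input features. Among the tRNA methyltransferases, 22 had at least 10 input reads, with 4 at least 2-fold higher, 4 at least 2-fold lower and a median ratio of 1.09. Of 32 other tRNA modification enzymes, 11 were higher and 10 lower by that measure, and of 16 METTL family members, 3 were higher and 6 lower. The median over all features was 1.02. In 9 neighbours of METTL1, the ratios ran from 0.255 to 10.7, with 2 at least 2-fold higher and 2 at least 2-fold lower.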

How the data were processed

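The authors deposited FPKM per gene for the 12 MHCC97H libraries, and no gene is listed below an FPKM of 1. For SNU449 and mouse libraries they deposited a signal per feature, named RPKM. These values are whole multiples of the smallest value of each library for 99.97% to 99.99% of SNU449 features within a tolerance of 0.01, so whole reads were recovered, and each is a count divided by a factor per library. Per the submitters' processing notes, Bowtie2, HTSeq and GRCh38 were used; the sources used here give no versions, roles or normalization. Groups came from sample titles. TRAC-Seq of MHCC97H was not analysed here.

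The limma package (3.58.1, R 4.3.3) fitted log2(FPKM + 1) by group in the 12 libraries together. Variances were moderated along an intensity trend, and two-sided p-values were adjusted by Benjamini-Hochberg over all genes and called at 0.05. Requiring FPKM of 1 or more in 3 or more libraries removed 0 genes. Single values were tested by exact permutation, and SNU449 intervals were computed with scipy 1.17.1. The fit was tested on simulated data with independent libraries and a cap on the spread of each gene. The simulation held no separation of repeat 1, so it does not show how the fit performs on these libraries. Deviations from the group means correlated between libraries of the same number (lowest correlation across genes 0.319), which meets the rule for pairing, but differently numbered ones reached 0.928.

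The genes named were METTL1 and WDR4; at most 3 members with the smallest polysome p from each of 7 lists, and all listed members for m7G enzymes; neighbours within 250 kb; the 5 genes most correlated with each member; and the first 5 genes lower in both kinds of RNA. AZGP1 and other genes called under an alternative were named after their values were seen. The members and lists were chosen with earlier results of these data known. Alternatives were other pseudocounts, filters, scalings, fits and left-out libraries.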

Additional observations from a re-analysis of the deposited data

Results flagged for a closer look

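Mouse liver tumor libraries of 3 control animals, which enter no comparison above, held reads of the mouse genes. Mettl1 had 21 reads over the 3 input libraries (7, 1 and 13 in animals 1, 2 and 3) and 29 over the NaBH4 libraries (16, 3 and 10). Wdr4 had 71 reads over the input libraries (12, 19 and 40) and 34 over the NaBH4 libraries (4, 20 and 10). All sums were above the 3 reads that a count of 0 allows.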

How the results depend on the processing

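METTL1 stayed lower in the knockdown in both kinds of RNA under every alternative run, as did its ratio to WDR4. Leaving out each library in turn gave METTL1 differences of -1.54 to -0.78 in polysome RNA (limma adjusted p 0.191 to 0.985; -0.78 without knockdown polysome replicate 1) and -1.53 to -1.23 in input RNA, and log2 ratios of -1.74 to -0.94 and -1.39 to -0.85. With a replicate block, the limma adjusted p of METTL1 was 0.260 in polysome and 1.00 in input RNA, and 1 gene was called in each, AZGP1. Apart from AZGP1, the block changed no call of a gene named in the text, METTL1 and WDR4 included. The 6 polysome libraries fitted alone called 1117 genes, with METTL1 at an adjusted p of 0.0765 and RNMT, TRMT10C, TRMT6, METTL15 and B4GALT4 past the threshold.

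Other results changed sign. The METTL1 interaction was -0.0049 with repeats 2 and 3 averaged into a single value beside repeat 1. It was -0.15 to 0.61 with libraries left out in turn. METTL1 polysome minus input was -0.24 (quantile) and -0.50 (equal median) in the control, and -0.15 and -0.23 in the knockdown; leaving out libraries gave -0.0367 to 0.16 and -0.10 to 0.66. WDR4 polysome minus input in the knockdown was -0.17, -0.27 and, left out in turn, -0.24 to 0.37, and the WDR4 input difference was -0.51 to 0.10. The cause was not tested.

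Leaving out libraries gave 0 to 4 called genes in polysome RNA and 0 to 3 for the interaction, with the highest counts without control input replicate 1 (ACY3, AZGP1, CDC5L and DHX29 in polysome RNA; CDC5L, DHX29 and RAD51AP1 for the interaction, all picked after their values were seen). For polysome against input it gave 0 to 3945 in the control, the highest without control input replicate 1, and 0 to 1978 in the knockdown, the highest without knockdown input replicate 1. With repeats 2 and 3 only, chosen after seeing the data, 5209 genes were called in polysome RNA, 4092 in input RNA, 5410 for the interaction, and 7111 and 6968 for polysome against input in control and knockdown. METTL1 was then called at -0.73 in polysome RNA, -1.12 in input RNA, 0.39 for the interaction and 0.50 for polysome minus input in the knockdown, and WDR4 at -0.42 in the control and -0.25 in the knockdown. FPKM gives no depth, and WDR4 in SNU449 rests on 7 to 23 reads.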
